A study of Arabidopsis thaliana with 36 samples.

Results

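Binding along the plastid genome was compared between seedlings of sig2-2, a line of Arabidopsis thaliana named for the sigma factor gene SIG2, and seedlings of the reference strain Col0. The comparison takes 12 of the 36 libraries of the series, namely 3 immunoprecipitated (ChIP) and 3 input libraries from each line, chosen by line, age and tissue in the labels. Its 113 plastid genes and 2564 windows of 50 bp were tested in a fit over the 24 seedling libraries, which also hold the lines chl27 and chlm.

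Both lines were labelled as 4-day-old seedlings grown on MS plates under continuous light of 100 umol m-2 s-1 with no treatment, and the protocol pooled 50 seedlings, crosslinked them with 4% formaldehyde for 4 h and enriched chloroplasts. The genotype entry of the labels reads wild type for every line, so the lines rest on titles and cell line entries, and 1 title of a sig2-2 library misplaces the hyphen. No antibody is named for the seedling libraries. SIG2 is a nuclear gene and lies outside the plastid table, so the sig2-2 label could not be checked on its own gene, and nothing says whether replicates were separate sowings.

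Plastid genes are transcribed by a bacterial-type polymerase encoded in the plastid and by a phage-type polymerase encoded in the nucleus. The plastid-encoded enzyme needs a sigma factor to recognise promoters, and plants carry several nuclear sigma factor genes. SIG2 is known for its role in the transcription of a group of plastid tRNA genes, among them the glutamate tRNA gene trnE, whose product also feeds the synthesis of chlorophyll and heme. chl27 and chlm are named for enzymes of chlorophyll synthesis.

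The values are coverage, the number of reads over each position. Mean coverage was 1885 to 2476 per position in the ChIP libraries and 1132 to 1956 in the inputs. Each library was scaled to its plastid total, and enrichment is log2 ChIP minus the mean log2 input of the line, so that 0 is close to the plastid average and more coverage at a gene lowers the share of all others. Pairs of replicates differed with an SD of 0.158 to 0.191 (log2, over 50 bp windows) among ChIP libraries and 0.0748 to 0.149 among inputs.

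The profile of sig2-2 was narrower than that of Col0 along the whole plastid genome. Genes that were strongly bound in Col0 lost enrichment, genes that were weakly bound gained it, and their order was largely kept. The SD of enrichment over the 113 genes was 1.25, 1.26 and 1.21 in the 3 Col0 libraries and 0.599, 0.565 and 0.567 in the 3 sig2-2 libraries. The lines did not overlap (Col0 1.24 ± 0.0275, sig2-2 0.577 ± 0.0190, SD, n = 3 each; exact two-sided permutation test, p = 0.1, the smallest that 3 against 3 allows). The span from the 10th to the 90th percentile of genes was 3.31 ± 0.109 in Col0 and 1.53 ± 0.0900 in sig2-2.

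Both ends of the range moved towards the average. The lowest gene of a library stood at -2.01 to -1.92 in Col0 and at -0.78 to -0.70 in sig2-2. The highest gene stood at 2.60 to 2.74 in Col0 and at 1.46 to 1.82 in sig2-2. The rRNA operon was measured from rrn16S to rrn4.5S, positions 101012 to 107701 with a mirrored copy, which leaves out the rRNA gene ArthCr091 (130580 to 130700). This span took 27.1%, 28% and 24.3% of coverage in the Col0 ChIP libraries and 16.5%, 17.5% and 15.3% in those of sig2-2 (exact two-sided permutation test, p = 0.1).

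A straight line fitted over genes described the narrowing. Its slope was 0.40 and its intercept 0.08 (Theil-Sen line of mean sig2-2 on mean Col0 enrichment, which share no library; Pearson r 0.84 and Spearman rho 0.88 across genes, which are not independent replicates). Over windows the slope was 0.43 and the intercept 0.12. Single sig2-2 libraries had slopes of 0.417, 0.373 and 0.402 over genes, whereas single Col0 libraries, each set against the mean of the other two, had slopes of 1.01, 1.02 and 0.964. Against the chlm profile, in which no Col0 library enters, the slope was again 0.40.

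**Figure D1:**
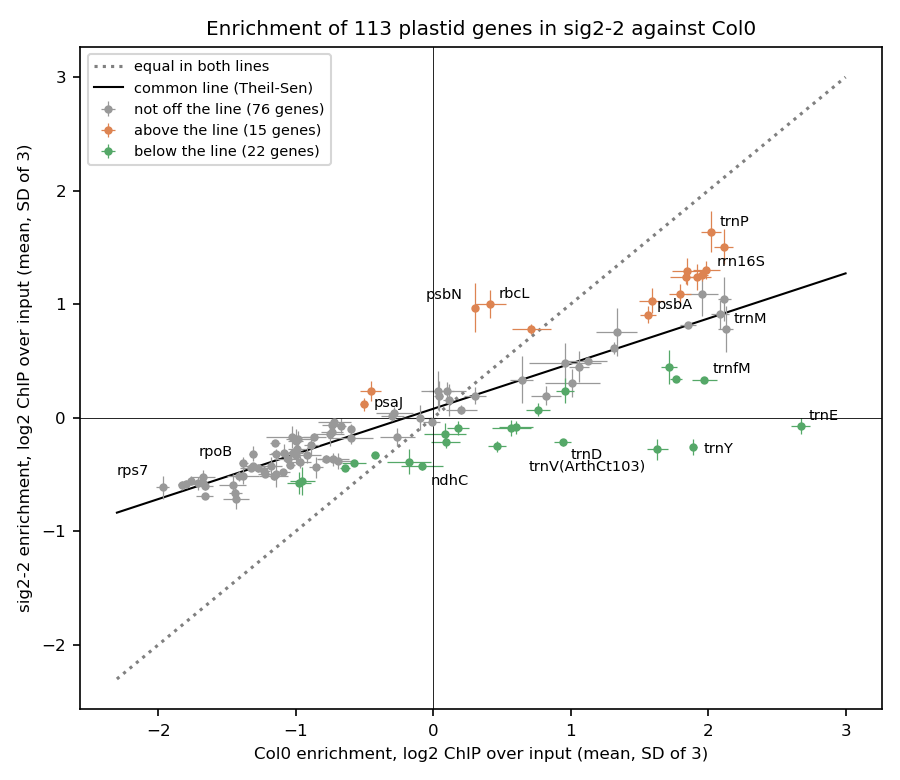
Mean enrichment (log2 ChIP over input) of each of the 113 plastid genes in sig2-2 (vertical axis) against Col0 (horizontal axis); error bars are the SD of 3 libraries, the solid line is the common line with a slope of 0.40 and the dotted line marks equal enrichment. Most genes follow the solid line, 22 passed the test below it (green) and 15 above it (orange).

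The genes were also ordered by an independent profile, that of RpoB in 14-day-old Day leaves, in groups of 28 or 29. In the group with the lowest leaf enrichment, all 29 genes were higher in sig2-2, and the median enrichment went from -1.38 in Col0 to -0.51 in sig2-2. In the next group the medians were -0.82 and -0.32, with 24 genes higher and 1 lower. In the third they were 0.11 and 0.03, with 7 higher and 10 lower. In the group with the highest leaf enrichment 27 of 28 genes were lower and none was higher, and the median went from 1.84 to 0.80. The median distance from the common line stayed between -0.03 and 0.02 in all 4 groups, for a line fitted to these same genes with a median distance of 0.

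The chl27 and chlm lines differed from Col0 less. The slope on Col0 was 0.886, 0.643 and 0.667 in the chl27 libraries, of which the first stood apart, and 0.941, 0.885 and 1.06 in the chlm libraries. The sig2-2 slopes lay below all 6 of these values, and the test of sig2-2 against either line gave p = 0.1 (exact two-sided permutation test). The comparisons with Col0 share the Col0 libraries.

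**Figure D2:**
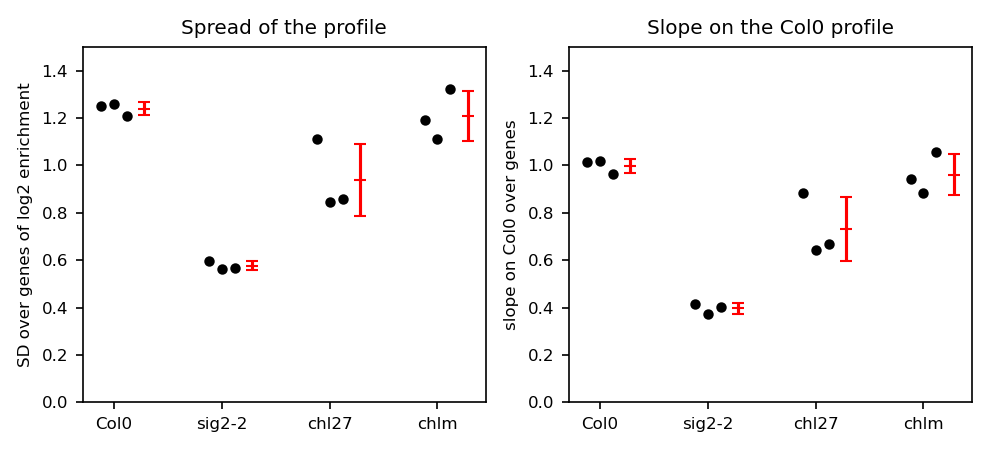
SD over 113 genes of log2 enrichment (left axis pair) and slope over genes of each library on the Col0 profile (right axis pair) for the 3 ChIP libraries of each line; black points are libraries and red bars the mean ± SD of 3. The sig2-2 points lie at 0.565 to 0.599 and at 0.373 to 0.417, below every library of the other lines.

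Taken gene by gene, the difference in enrichment from Col0 therefore mixes the narrowing with whatever is particular to a gene. It passed the threshold for 98 of 113 genes (86.7% called, limma, Benjamini-Hochberg adjusted p under 0.05), 60 higher (53.1%) and 38 lower (33.6%). The libraries of the lines did not overlap for 103 genes (91.2%). The median change was 0.36 with scaling to the plastid total, 0.27 with scaling to coverage outside the repeats and 0.02 after centring libraries on their median gene, where the split was 50 higher and 50 lower.

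The distance from the common line removes the narrowing, and a constant factor on a library does not move it. It passed the threshold for 37 genes (32.7% called), 15 above the line (13.3%) and 22 below it (19.5%), with the line itself taken as known. With a curve for a mixture of the Col0 profile and a flat one in place of the line, 8 genes lay above and 20 below, of which 6 and 16 were among those off the line. The SD over genes was 0.82 for the change and 0.31 for the distance. Of the 38 genes that fell, 16 also lay below the line, 12 did not pass the test against it and 10 lay above it. Of the 60 genes that rose, 54 did not pass the test against the line, 4 lay above it and 2 below it.

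The largest rises belonged to genes that were depleted in Col0, and they did not pass the test against the line. rps7 (ArthCp069, positions 97478 to 97945 with a copy in the other repeat), a ribosomal protein gene, was at -2.01, -1.92 and -1.97 in Col0 and at -0.64, -0.50 and -0.70 in sig2-2. All sig2-2 libraries lay above all Col0 libraries. The change was 1.35 (SE 0.170, limma adjusted p = 7.53e-09) and the distance 0.09 (adjusted p = 0.726). The other genes of this kind were ndhB, a subunit of the plastid NDH complex, rpoC2 and rpoB, subunits of the plastid-encoded polymerase, the large open reading frame ycf2, and rps12. They rose by 1.13 to 1.23, and their distances from the line were 0.02 to 0.07.

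Several gene groups had low binding in Col0, and their counts can be set beside those of all genes, of which 53.1% were higher, 33.6% lower, 13.3% above the line and 19.5% below it. All 7 genes whose main polymerase is known to be the nuclear one (accD, clpP, rpoB, rpoC1, rpoC2, ycf1 and ycf2) rose, with a median change of 1.10, and none passed the test against the line (median distance 0.05). Of the 21 ribosomal protein genes 18 rose, none lay above the line and 3 lay below it. Of the 6 cytochrome b6f genes 4 rose and none passed the test against the line. Of the 6 ATP synthase genes 5 rose and atpE fell, the latter at a distance of -0.33 (adjusted p = 0.00149). Of the 11 ndh genes 8 rose and 1 fell, with 1 above the line and 2 below it. Over all 113 genes the median distance is 0 by construction.

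The strongest site-specific losses were at tRNA genes of the list known to depend on SIG2. trnE (ArthCt097, positions 30466 to 30538) was the most enriched gene in each Col0 library, at 2.60, 2.68 and 2.74. In sig2-2 it was at -0.0017, -0.08 and -0.13, which is close to the plastid average. The change was -2.75 (SE 0.115, limma adjusted p = 2.92e-23). The line placed it at 1.14, and it lay 1.21 under that (distance -1.21, SE 0.0875, adjusted p = 3.81e-15).

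The neighbours of trnE behaved alike. trnY (ArthCt096, 30323 to 30406), the tyrosine tRNA gene, was at 1.92, 1.87 and 1.89 in Col0 and at -0.22, -0.22 and -0.34 in sig2-2, a distance of -1.09 (adjusted p = 2.41e-15). trnD (ArthCt095, 29801 to 29874), the aspartate tRNA gene, was at 0.90, 0.91 and 1.02 in Col0 and at -0.23, -0.18 and -0.24 in sig2-2, a distance of -0.67 (adjusted p = 9.95e-10). For all 3 genes every sig2-2 library lay below 0 and below every Col0 library.

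The valine tRNA gene trnV (ArthCt103, 51199 to 51871) lies elsewhere and showed a loss of like size. It was at 1.72, 1.59 and 1.58 in Col0 and at -0.18, -0.36 and -0.30 in sig2-2. The distance was -1.01 (SE 0.0878, adjusted p = 1.23e-12).

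The remaining 2 genes of the SIG2 list did not pass the test against the line. trnM (ArthCt104, 52056 to 52128), a methionine tRNA gene next to trnV, was at 2.07, 2.18 and 2.13 in Col0 and at 0.85, 0.56 and 0.94 in sig2-2. It fell by 1.34 (adjusted p = 4.43e-13), and its distance was -0.14 (adjusted p = 0.247). With the mixture curve its distance was -0.53 (adjusted p = 8.11e-05). psaJ (ArthCp042, 66929 to 67063), a small subunit of photosystem I, was at -0.01, -0.24 and -0.05 in Col0 and at 0.05, -0.13 and 0.08 in sig2-2, and the lines overlapped. Its change was 0.10 (adjusted p = 0.387), with the opposite sign (-0.24, adjusted p = 0.0412) when libraries were centred on their median gene. As a list, 4 of 6 genes lay below the line, beside 19.5% of all genes, with a median distance of -0.84.

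**Figure D3:**
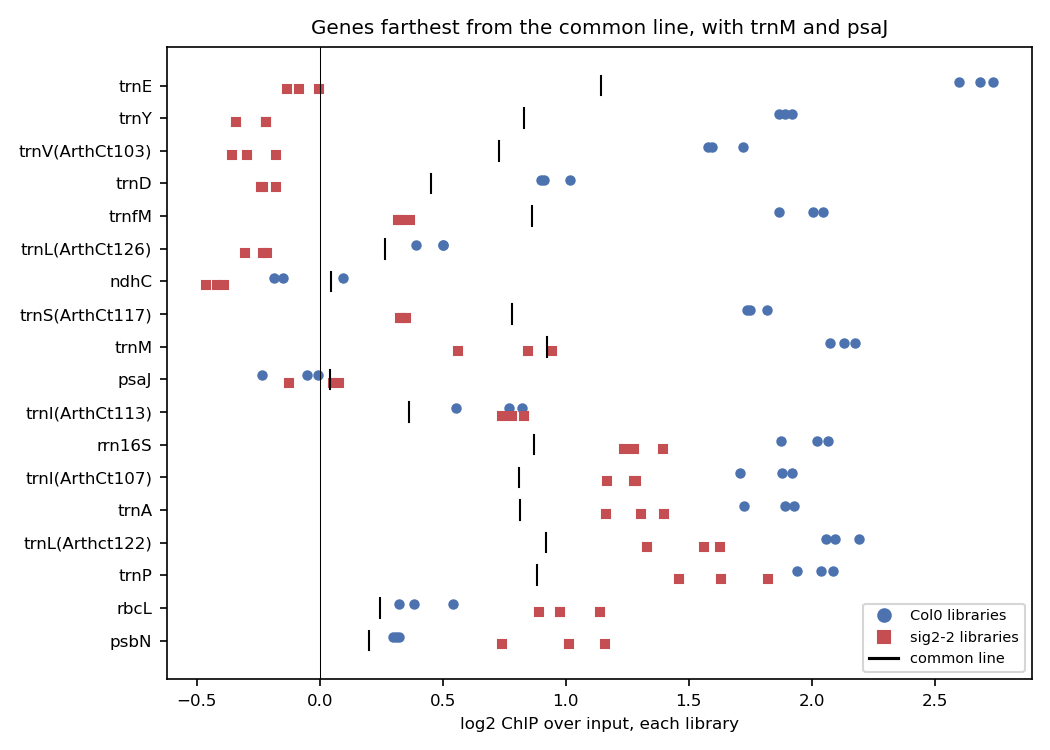
Log2 enrichment of each Col0 library (blue circles) and each sig2-2 library (red squares) for the 8 genes farthest below and the 8 farthest above the common line, with trnM and psaJ; black ticks mark where the common line places sig2-2. The sig2-2 values of trnE, trnY, trnV and trnD lie at or under 0 and far left of the tick, and those of rbcL and psbN lie right of both the tick and the Col0 values.

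Losses beyond the line also occurred at genes outside the SIG2 list. trnfM (ArthCt099, 36704 to 36777), the initiator methionine tRNA gene, was at 1.87, 2.01 and 2.05 in Col0 and at 0.33, 0.37 and 0.32 in sig2-2, a distance of -0.53 (adjusted p = 1.03e-06). trnS (ArthCt117, 35312 to 35403), a serine tRNA gene, was at 1.75, 1.82 and 1.74 and at 0.35, 0.34 and 0.32, a distance of -0.44 (adjusted p = 2.35e-06). Both kept enrichment above the plastid average. A leucine tRNA gene of the repeat, trnL (ArthCt126), was at 0.50, 0.50 and 0.39 in Col0 and fell to -0.22, -0.23 and -0.30 in sig2-2, a distance of -0.51 (adjusted p = 1.2e-06). ndhC (ArthCp027, 50001 to 50363), a subunit of the NDH complex, was at -0.15, -0.19 and 0.09 in Col0 and at -0.46, -0.39 and -0.42 in sig2-2, a distance of -0.47 (adjusted p = 7.98e-06).

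The tRNA genes as a class split. Of all 30, 28 fell and none rose, yet 6 lay above the line, 12 below it and 12 did not pass the test. Over all genes 53.1% rose, 33.6% fell, 13.3% lay above and 19.5% below. Among the 25 that are not in the SIG2 list 6 lay above and 8 below, with a median distance of 0.00. Their levels in Col0 overlapped: Col0 enrichment ran from 0.72 to 2.11 with a median of 1.84 among the 6 above, and from 0.18 to 2.67 with a median of 1.30 among the 12 below. In sig2-2 their ranges did not overlap, at 0.78 to 1.64 and at -0.28 to 0.45, as the choice by distance favours. The glutamine tRNA gene trnQ (ArthCt090, 6616 to 6687) is an example of a fall along the line, at 2.04, 2.16 and 2.05 in Col0 and at 0.90, 0.79 and 1.05 in sig2-2. It fell by 1.17 (adjusted p = 4.65e-12) with a distance of 0.00 (adjusted p = 0.976), or -0.37 (adjusted p = 0.00314) from the mixture curve. Of the 23 tRNA genes outside the inverted repeat 2 lay above and 10 below, and of the 7 in the repeat 4 lay above and 2 below. These splits depended on the shape taken for the narrowing. With the mixture curve 2 of the 30 lay above and 14 below. Among the 25 outside the SIG2 list 2 then lay above and 9 below, with a median distance of -0.17. Outside the repeat 1 lay above that curve and 12 below, and in the repeat 1 above and 2 below.

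The proline tRNA gene trnP (ArthCt106, 66490 to 66563) was the tRNA gene farthest above the line. It was at 1.94, 2.09 and 2.04 in Col0 and at 1.63, 1.46 and 1.82 in sig2-2, where it was the highest gene on average. It fell by 0.38 (adjusted p = 0.00339), while the line placed it at 0.88, so that it lay 0.75 above (SE 0.0913, adjusted p = 5.46e-09). From the mixture curve its distance was smaller, at 0.41 (adjusted p = 0.0027). trnL (Arthct122, 114270 to 114349), another leucine tRNA gene, was at 2.06, 2.19 and 2.10 and at 1.56, 1.33 and 1.63, a distance of 0.59 (adjusted p = 4.03e-06). With the mixture curve this trnL did not pass, at 0.20 (adjusted p = 0.179). trnI (ArthCt113), an isoleucine tRNA gene of the repeat, was at 0.82, 0.77 and 0.56 in Col0 and at 0.83, 0.74 and 0.78 in sig2-2, so that the lines overlapped, and lay 0.42 above the line (adjusted p = 1.9e-05). Its change of 0.07 turned to -0.27 with centred libraries and to -0.03 with scaling outside the repeats.

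The rRNA operon fell less than the line predicted. rrn16S (ArthCr086, 101012 to 102502, with a copy), the gene of the small ribosomal RNA, was at 2.02, 2.07 and 1.87 in Col0 and at 1.28, 1.39 and 1.24 in sig2-2. It fell by 0.68 (adjusted p = 3.94e-06) and lay 0.43 above the line (adjusted p = 0.000273). All 4 rRNA genes fell and all 4 lay above the line, at 0.30 to 0.43, as did both tRNA genes of the operon, trnA (ArthCt108) at 0.48 and trnI (ArthCt107) at 0.43. This depended on the shape taken for the narrowing: with the mixture curve none of the 4 rRNA genes passed and rrn16S was at 0.10 (adjusted p = 0.581). Nor did trnA, at 0.19 (adjusted p = 0.171), or trnI (ArthCt107), at 0.15 (adjusted p = 0.269), pass with that curve. psbA (ArthCp002, 383 to 1444), the D1 protein of photosystem II, was at 1.63, 1.53 and 1.53 in Col0 and at 0.87, 0.99 and 0.85 in sig2-2. Its distance of 0.21 (adjusted p = 0.0328) was lost with the mixture curve, at 0.01, and without either Col0 replicate 1 or 3 or sig2-2 replicate 2 or 3 (adjusted p = 0.0562 to 0.369). It was also lost with centred libraries (adjusted p = 0.133), with scaling outside the repeats (adjusted p = 0.0563), with chl27 as the axis (adjusted p = 0.142) and without the lowest 10% of genes (adjusted p = 0.0621).

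Gains beyond the line were fewer, and the clearest were at rbcL and psbN. rbcL (ArthCp030, 54958 to 56397), the large subunit of Rubisco, was at 0.54, 0.32 and 0.38 in Col0 and at 1.14, 0.98 and 0.89 in sig2-2. The lines did not overlap, the change was 0.59 (SE 0.106, adjusted p = 3.42e-06), or 0.25 (adjusted p = 0.0964) with centred libraries, and the distance was 0.76 (SE 0.0803, adjusted p = 2.19e-10). psbN (ArthCp051, 74249 to 74380), a small gene of the photosystem II group, was at 0.30, 0.32 and 0.31 in Col0 and at 1.16, 0.74 and 1.01 in sig2-2, a distance of 0.77 (SE 0.0785, adjusted p = 9.32e-11). psbE, a cytochrome b559 subunit, and ndhH, an NDH subunit, rose by 0.62 and 0.69 and lay 0.24 (adjusted p = 0.0153) and 0.34 (adjusted p = 0.000482) above the line. Of the 21 photosystem genes with rbcL, 13 rose, 3 fell, 4 lay above the line and 2 below it, with a median distance of 0.06, beside 53.1% higher, 33.6% lower, 13.3% above and 19.5% below over all genes. psbD, the D2 protein of photosystem II, which overlaps psbC, differed by 0.15 (adjusted p = 0.157), or by -0.19 (adjusted p = 0.0374) with centred libraries, and its distance was 0.09 (adjusted p = 0.385).

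**Figure D4:**
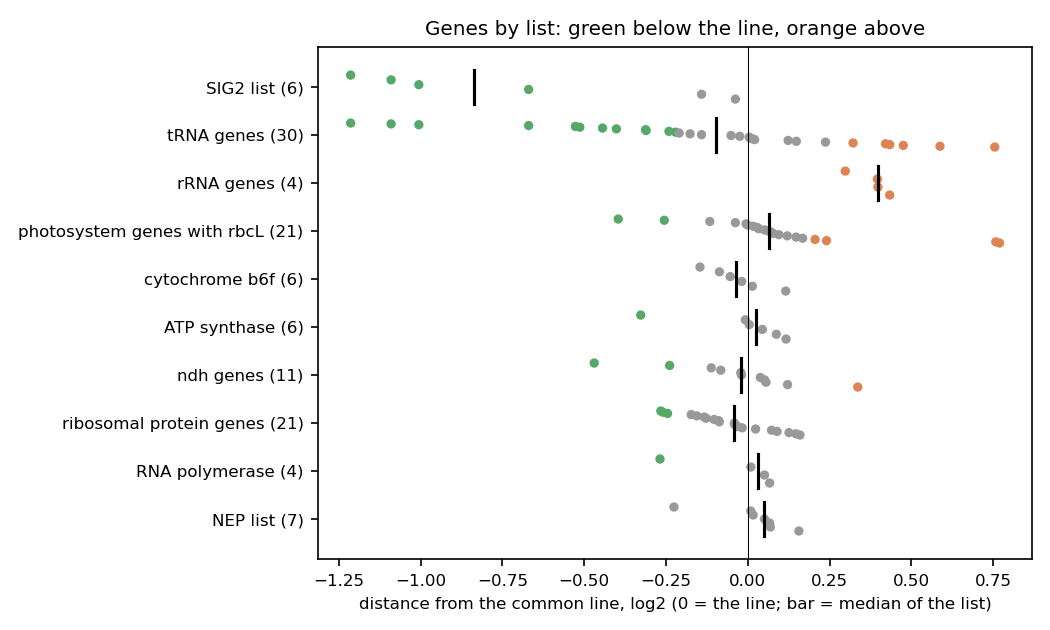
Distance of each gene from the common line (horizontal axis, log2; 0 is the line) by gene list, with list sizes in brackets; green points passed the test below the line, orange points above it and grey points neither, and black bars are list medians. The SIG2 list has its median at -0.84 and the rRNA genes at 0.40, while the lists of proteins have medians within 0.06 of the line; lists overlap in part.

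Windows located the losses and gains. Of 2564 windows, 2255 changed (87.9% called), 1774 higher (69.2%) and 481 lower (18.8%), or 908 and 863 with centred libraries. Off the line were 567 (22.1% called), 234 above (9.13%) and 333 below (13%). Of 190 windows in tRNA genes 41 lay above and 111 below, of 92 windows in rRNA genes 55 lay above and none below, of 684 intergenic windows 77 lay above and 130 below, and of 1598 windows in protein-coding genes 61 lay above and 92 below. The rRNA gene ArthCr091 is listed only in the second repeat copy, which the windows do not number. Windows at its mirrored position were therefore counted as intergenic. A window touching several entries was counted as rRNA first, then tRNA, then protein-coding. The tRNA windows therefore include those of matK, which lies within the trnK entry (1717 to 4347). Both lay below the line, at -0.40 each. Neighbouring windows share reads. Runs of at least 2 windows past the threshold and at least 0.5 from the line made 14 regions below it, 5500 bp in all, and 11 above it, 3750 bp in all.

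The 2 regions farthest below the line were also the longest of the 14. Positions 29601 to 30750 hold trnD, trnY and trnE and ended 618 bp before trnT. Enrichment over this region was 1.21, 1.26 and 1.43 in the Col0 libraries and -0.41, -0.35 and -0.29 in those of sig2-2, and the mean of sig2-2 was below 0 in all 23 windows. The mean distance was -1.03, and the extreme, -1.37 (SE 0.1, adjusted p = 2.17e-13), was at 30501 to 30550, where Col0 reached 2.78. Positions 50201 to 52000 reach from ndhC over trnV to 55 bp before trnM. They were at 1.04, 0.86 and 1.06 in Col0 and at -0.40, -0.44 and -0.35 in sig2-2, with a mean distance of -0.95 and a mean of sig2-2 below 0 in 33 of 36 windows. A narrower loss followed on the far side of trnM, at 52151 to 52400 over part of atpE, with a mean distance of -0.59.

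The other regions of loss were shorter or shallower. Positions 36651 to 36950 over trnfM and part of rps14 had a mean distance of -0.63 and kept enrichment of 0.29, 0.32 and 0.36 in sig2-2. The neighbouring peak at trnG (ArthCt116), 90 bp away, did not pass the test against the line (distance 0.12, adjusted p = 0.36). Positions 35251 to 35400 over trnS (ArthCt117) were at -0.56, positions 2851 to 3300 inside matK and the trnK entry were at -0.56, and positions 3951 to 4550, from within trnK into the space beyond it, were at -0.55. Positions 113901 to 114050 between rpl32 and trnL (Arthct122) were at -0.57, on low enrichment in both lines (-1.65 and -1.16), and no window there passed without sig2-2 replicate 1.

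**Figure D5:**
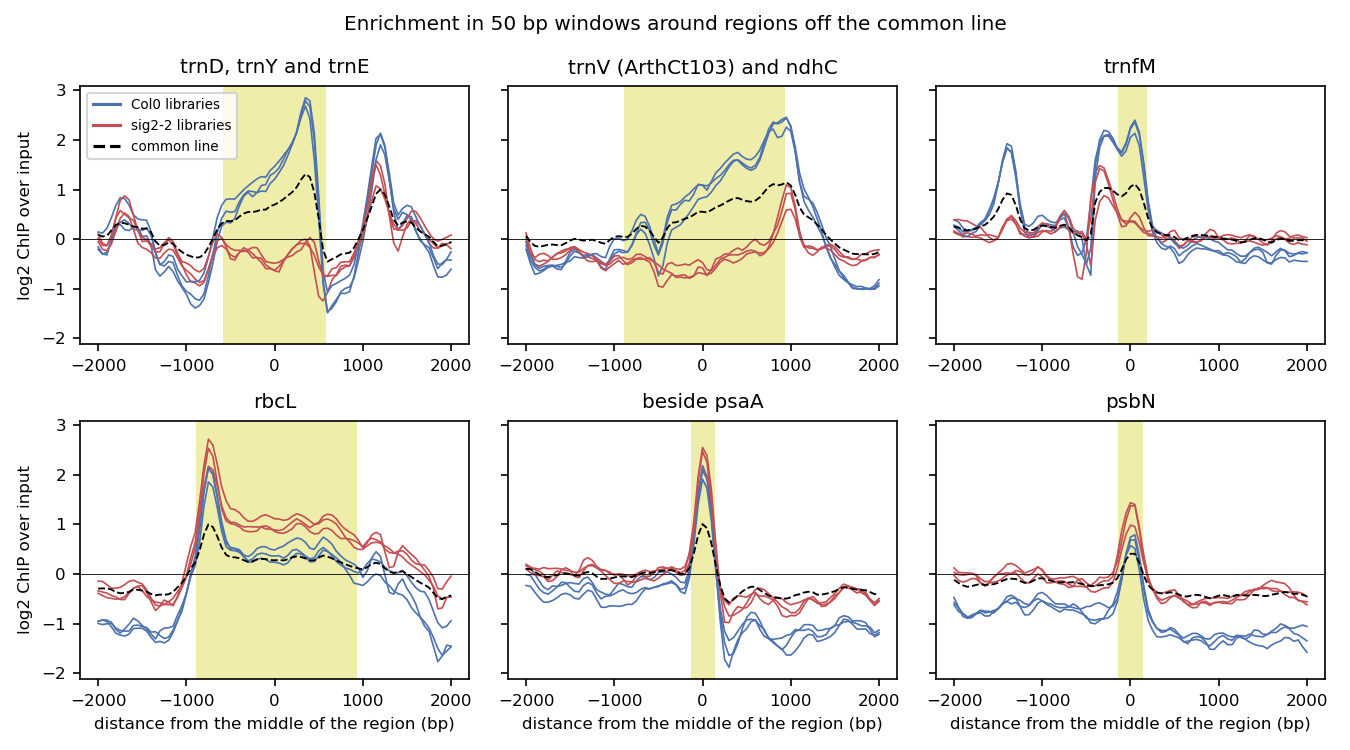
Log2 enrichment in 50 bp windows against distance from the middle of the region (bp) for 3 regions below the common line (top) and 3 above it (bottom); thin lines are single libraries of Col0 (blue) and sig2-2 (red), the dashed line is where the common line places sig2-2, and the region is shaded. Over trnD, trnY and trnE the mean of sig2-2 stays under 0 in every window of the region while that of Col0 climbs to 2.78, and at rbcL and beside psaA the sig2-2 peaks reach 2.48 and 2.38 against dashed peaks near 1.

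Gains were narrow, except at rbcL. The rbcL region, 54651 to 56450, was at 0.70, 0.47 and 0.56 in Col0 and at 1.30, 1.08 and 1.05 in sig2-2, with a mean distance of 0.77 over 36 windows. Its extreme, 1.48 (SE 0.166, adjusted p = 5.98e-09), was at 54751 to 54800, in the space between atpB and rbcL, where enrichment was 2.05 in Col0 and 2.48 in sig2-2. The farthest region above the line was 41901 to 42150, between psaA and ycf3 and 43 bp from psaA, which encodes a core subunit of photosystem I. It was at 1.54, 1.34 and 1.5 in Col0 and at 1.93, 1.61 and 1.79 in sig2-2, with a mean distance of 1.03. The body of psaA was at 0.07 from the line (adjusted p = 0.578), and its rise of 0.32 (adjusted p = 0.00521) turned to -0.02 with centred libraries.

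Further short regions lay above the line with higher values in sig2-2 than in Col0. Positions 13801 to 14050, between atpH and atpI and over the first bases of atpI as numbered, were at -0.11, 0.01 and 0.36 in Col0 and at 1.21, 0.77 and 1.19 in sig2-2, a mean distance of 0.89. The genes on either side, subunits of the ATP synthase, had distances of 0.12 (atpH, adjusted p = 0.361) and 0.00 (atpI, adjusted p = 0.976). Positions 64351 to 64550, 28 bp from psbE, were at a mean distance of 0.88, positions 121951 to 122200 at the border of ndhA and ndhH at 0.84, and positions 74251 to 74500 over psbN and psbH at 0.72. In all 4 of these regions the mean of sig2-2 was above that of Col0, by 0.37 to 0.97. These rises are on scaling to the plastid total, where the median change over all windows was 0.62. Positions 13801 to 14050 rose by more (0.97) and 74251 to 74500 by about as much (0.63). Positions 64351 to 64550 (0.37) and 121951 to 122200 (0.45) rose by less, as did the regions at rbcL (0.57) and beside psaA (0.32).

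The remaining named gains were peaks that fell less than the line predicted. Positions 47451 to 47700, mostly in the space after trnL (ArthCt101, which ends at 47490) as numbered, went from 3.01 in Col0 to 2.26 in sig2-2, a mean distance of 0.84. The trnL gene itself was at 0.01 from the line (adjusted p = 0.943). Positions 100851 to 101050 before rrn16S, in both copies, went from 2.80 to 2.01, a mean distance of 0.69. With the mixture curve no window of either region passed.

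No gene was off the line of chl27 on Col0 or of chlm on Col0 (0 called in each by limma, with 7 and 6 at an unadjusted p under 0.05), although 61 genes changed in chl27 (54% called). No window was off either line (197 and 278 at an unadjusted p under 0.05). The smallest adjusted p over windows was 0.254 for chl27 and 0.0545 for chlm (limma), so chlm missed the threshold narrowly. The largest window distance above the line was 0.65 in chl27 and 1.85 in chlm, beside 1.48 in sig2-2. The difference between lines was tested directly, with chl27 or chlm in the place of Col0. Enrichment differed from chl27 for 80 genes (70.8% called) and from chlm for 101 (89.4%), and 33 genes (29.2%) and 44 genes (38.9%) lay off the respective lines. Set against chl27, trnE lay at -1.39, trnY at -1.19, trnV (ArthCt103) at -1.12 and trnD at -0.72, and rbcL at 0.73, psbN at 0.83 and trnP at 0.66 (largest adjusted p of the 7, 5.16e-07). Set against chlm they lay at -1.20, -1.06, -1.01 and -0.67, and at 0.79, 0.87 and 0.77 (largest adjusted p 3.83e-09). Of the 22 genes below the Col0 line 22 were below the chlm line and 18 below the chl27 line, and of the 15 above it 15 and 14 were above, with the sig2-2 libraries common to all 3. The region beside psaA lay at -0.35 and -0.39 from the lines of chl27 and chlm on Col0, opposite in sign to sig2-2, and at 1.22 and 1.25 when sig2-2 was set against those lines. Other gains had the sign of sig2-2 in chl27 and chlm on Col0. Positions 47451 to 47700 lay at 0.59 and 0.23, 121951 to 122200 at 0.34 and 0.19, and 64351 to 64550 at 0.20 and 0.04. The rbcL region lay at 0.13 and 0.09. Before rrn16S the values were 0.27 and -0.03, at 13801 to 14050 -0.13 and 0.01, and over psbN -0.11 and -0.19. With sig2-2 set against chl27, positions 47451 to 47700 lay at 0.42, with 2 of 5 windows past the threshold.

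The inputs gave the background of unselected DNA. No gene differed between sig2-2 and Col0 inputs in the shared fit (0 called, 0 at an unadjusted p under 0.05). That fit pools the spread of inputs with that of ChIP libraries, so it could hardly call a difference between inputs. Pairs of ChIP replicates differed with an SD of 0.158 to 0.191 and pairs of inputs with 0.0748 to 0.149. In a limma fit over inputs alone 15 genes did (13.3% called), 3 higher and 12 lower, by at most 0.161, as did 43 of 2564 windows (1.68% called). Among them trnV (ArthCt103) was higher by 0.10 (adjusted p = 0.0227) and trnfM by 0.13 (adjusted p = 0.0124) in sig2-2, and trnL (Arthct122) lower by 0.14 (adjusted p = 0.00648). The SD over genes of log2 input level was 0.263 to 0.292 in Col0 and 0.252 to 0.316 in sig2-2.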

How the data were processed

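Coverage of each plastid position was deposited by the authors as whole numbers, 1 column a library, with no scaling; being coverage signal and not read counts, it was given no count model, and read numbers are unknown. Per the submitters' processing notes, Trim Galore 0.4.1, Bowtie2 2.2.8.9, bedtools 2.25.0 and TAIR10 were used; duplicate and repeat handling is not given in the sources used here. Genes came from the RefSeq table of TAIR10.1: 129 entries gave 113 genes after 15 repeat pairs were averaged, and 10 genes overlap another. The mirror point of the repeats matched the coverage within 1 bp. Windows of 50 bp averaged both repeat copies.

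Coverage was scaled to 1000000 per library and per kb, 1 was added and log2 taken. Adding 0.1 or 10 in place of 1 changed no call of a named gene or region. Group means over the 24 libraries were fitted in R 4.3.3 with limma 3.58.1 (trended eBayes; Benjamini-Hochberg over all features, threshold 0.05) to test change and distance from a Theil-Sen line, and recovered planted distances on simulated data. The simulated narrowing was a straight line with independent noise, so the shape of the narrowing in these data was not tested by it. Python 3.11.15, numpy 2.4.6, pandas 2.3.3 and matplotlib 3.10.9 were also used. Replicates may be technical, so p-values measure the spread between these libraries. Same-numbered Col0 and sig2-2 libraries deviated together (r 0.450 to 0.599 for ChIP, 0.149 to 0.699 for inputs). ChIP libraries and inputs of the same line and number did so less evenly (r -0.099 to 0.623). The numbers may therefore pair libraries, and fits with the replicate as a block were made. The permutation tests over libraries took no account of such pairs.

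Named were the 6 largest rises and falls, the 8 genes and 8 regions farthest from the line on each side, the SIG2 list and rbcL, psbA, psaA, psbD, rpoB, rrn16S, trnQ and trnP. Members, lists and this rule were chosen with earlier results of these data known. No sequences were used here. Alternatives covered scaling, pseudocount, libraries, filters, window size and the shape and axis of the line.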

Additional observations from a re-analysis of the deposited data

Results flagged for a closer look

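The effect of sig2-2 differed from that of the other seedling lines in tests of the difference itself. Enrichment differed between sig2-2 and chl27 for 80 of 113 genes, and 33 genes lay off the line of sig2-2 on chl27. Enrichment differed between sig2-2 and chlm for 101 genes, and 44 genes lay off the line of sig2-2 on chlm (limma, adjusted p under 0.05). One chl27 library stood apart in its slope on Col0 (0.886, beside 0.643 and 0.667), and its part in these counts was not tested.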

How the results depend on the processing

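Replicates of Col0 or sig2-2 were left out 1 at a time, each with its ChIP and its input library. This gave 95 to 98 changed genes, 28 to 36 genes off the line, 2148 to 2238 changed windows and 386 to 557 windows off the line. The slopes were 0.38 to 0.41 over genes and 0.41 to 0.45 over windows. The replicate block by number gave 61 higher and 39 lower genes, 16 above and 23 below the line, and changed no call of a named gene or region. Genes of at least 300 bp gave 55 changed and 17 off the line, being fewer genes and without most tRNA genes. With chl27 as axis the slope was 0.54 over genes and 0.63 over windows, and with the Day leaf the slope of sig2-2 relative to Col0 was 0.37. Inputs fitted alone gave 15 genes in place of 0. Windows above the line numbered 152 without sig2-2 replicate 2, 355 with the 12 libraries alone and 150 with chl27 as axis, and chlm as axis gave 23 regions below and 18 above. The mixture curve left 8 genes above and 20 below the line, of which 6 of 15 and 16 of 22 were shared. Signs turned for changes with centred libraries (trnI ArthCt113 -0.27, psaJ -0.24, psaA -0.020, psbD -0.19) and with scaling outside the repeats (trnI ArthCt113 -0.028). Signs of distances close to 0 turned for trnQ (range -0.071 to 0.076 on leaving out 1 replicate), also with the chlm (-0.023) or chl27 axis (-0.052), without the lowest 10% of genes (-0.021) and with the mixture curve (-0.37). They also turned for psaJ (range -0.057 to 0.0081), also with the mixture curve (0.044) and the chl27 axis (0.0087). The mixture curve also turned rps7 (-0.040), ndhB (-0.047), rpoC2 (-0.041), ycf2 (-0.016) and rps12 (-0.050). Apart from the shorter gene list, the cause was not tested. Read numbers are unknown, so depth limits cannot be given.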
